A study of Mus musculus with 5 samples.

Results

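The genes described here are 36 chemokines and cytokines that tumor cells can release or carry on their surface, chosen by symbol from the chemokine, interleukin and colony stimulating factor families together with Tnf, Tslp, Lif and Mif. They were read out of 17923 genes listed in 5 RNA-seq libraries of mouse thyroid tumor cell lines, and all 36 were listed in at least 1 library. The lines came from thyroid tumors of mice with BrafV600E, an activated kinase that drives papillary thyroid cancer, and the study compared tumors that kept Ctnnb1, the gene of β-catenin, with tumors from which it was deleted. Both BVE-Ctnnb1wt libraries (wt 1 and wt 2) carried the line name BVE and passage 20, and TSH (thyroid-stimulating hormone) was absent for wt 1 and present for wt 2. The 3 BVE-Ctnnb1null libraries each carried a line name of their own, BVECTN_4 at passage 8 without TSH (null 1), BVECTN_4A at passage 11 (null 2) and BVECTN_5 at passage 7 (null 3), with no word on TSH for null 2 and null 3. According to the culture protocol, the medium held 4 mU/mL bovine TSH, and the wt and null lines had gone through about 25 and 20 passages, which differs from the labels. The ages and sexes of the donor mice and the Cre driver are not given in the sources used here. The lines were established by months of continuous culture, and nothing shows that the libraries came from separate tumors, so p-values here measure the spread between these libraries only, and the genotype cannot be told apart from the line or its passage. Estimated counts summed to between 29360002 and 30713079 a library, so a gene with 0 counts may still hold up to 3, which is about 0.1 CPM (counts scaled to a common library total), as far as counting error goes.

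Levels are given as FPKM, fragments scaled to transcript length and library total, which may therefore be compared between genes. Ctnnb1 RNA was at 59.3 and 73.8 FPKM in wt 1 and wt 2 and at 125, 196 and 118 FPKM in null 1, null 2 and null 3. It was higher in each library labelled null, with a log2 fold change of 0.55 (SE 0.44) and an adjusted p of 0.517 in the edgeR quasi-likelihood test. The sums run over whole transcripts and do not show which exons were read, so they do not check the deletion, and wt and null are the names the labels give. Of 12 thyroid follicular markers, between 2 and 4 reached 1 FPKM in a library, and Slc26a4, Foxe1, Duox2, Duoxa2 and Iyd stayed at or under 0.09 FPKM in all 5. The transcription factor Nkx2-1 was at 9.21, 15.0, 9.26, 34.8 and 0.26 FPKM (in this order wt 1, wt 2, null 1, null 2 and null 3, kept below).

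The null lines stood apart from one another in markers of other cell types. Summed over 8 epithelial markers, the libraries reached 1094, 1770, 13169, 706 and 1402 FPKM, with Krt7 the most abundant marker in null 1 at 5131 FPKM, and with Epcam and Cdh1 not listed in null 2. A sum over 9 fibroblast markers gave 290.0, 255, 1.70, 148 and 1413 FPKM, led by Col1a1 in every library, and 8 of the 9 reached 1 FPKM in null 3 against 1 in null 1. Dcn, Postn and Thy1 were at 84.7, 102 and 88.5 FPKM in null 3 and at or under 0.24 FPKM in the other libraries. Of 12 leukocyte markers, the general leukocyte marker Ptprc and Adgre1, Cd3e and Ncr1 were listed in no library. The leukocyte sums of 6.91, 15.8, 60.1, 1.36 and 40.7 FPKM were almost entirely Cd68, a lysosomal gene that other cells also express. None of 7 endothelial markers reached 1 FPKM.

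Chemokines are small secreted proteins that steer leukocytes along gradients by binding G protein-coupled receptors, and the positions of their first cysteines divide them into CXC, CC and CX3C families. Cytokines of the interleukin and colony stimulating factor families act on receptors that signal through kinases and transcription factors, and govern how myeloid and lymphoid cells grow, mature and survive. Thyroid tumors with activated BRAF are known for myeloid infiltrates, and NF-kB, AP-1 and interferon-activated factors are the classical regulators of many of these genes.

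Across the 36 genes, 29 reached 1 FPKM in at least 1 library, 19 reached 10 FPKM and 8 reached 100 FPKM. The remaining 7 (Cxcl15, Cxcl9, Cxcl11, Ccl20, Ccl28, Il1b and Tnf) stayed under 1 FPKM throughout. Mif, a cytokine that holds macrophages in place and binds Cd74, was the most abundant in every library and made up 44.6%, 68.7%, 62.5%, 39.4% and 38.0% of the summed FPKM of the 36 genes. Next after Mif came Csf1, the growth factor of macrophages, in null 2 (477 FPKM) and in wt 1 (395 FPKM), whereas Cxcl1 held that place in null 3 (394 FPKM), Cxcl5 in null 1 (191 FPKM) and Cxcl14 in wt 2 (286 FPKM). The second place thus went to a different gene in wt 2, null 1 and null 3, and the plot of levels shows how far the libraries lay apart for most genes.

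**Figure D1:**
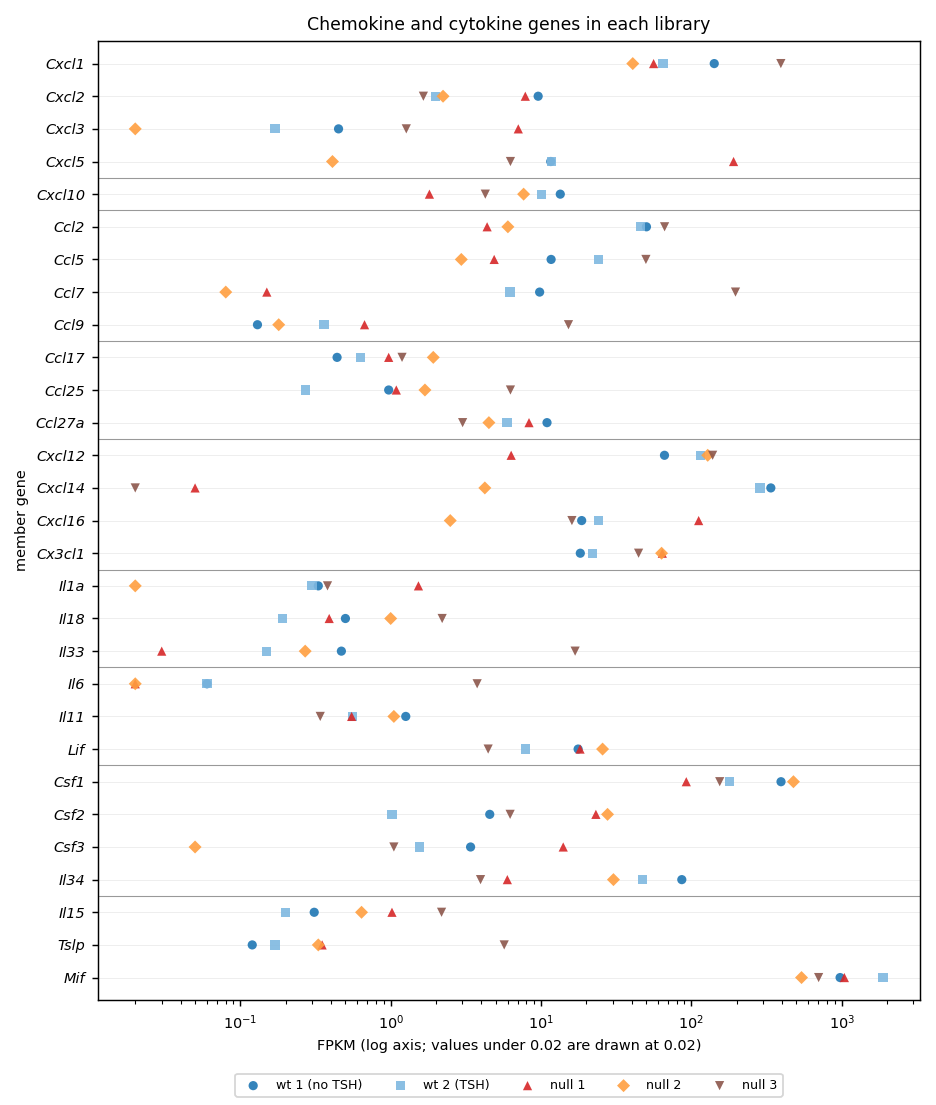
FPKM of the 29 chemokine and cytokine genes that reached 1 FPKM in at least 1 library, on a log axis with values under 0.02 drawn at 0.02; each point is 1 library and the lines separate groups of related genes. Cxcl14 lay at 286 and 338 FPKM in the wt libraries and at or under 4.23 FPKM in the null libraries, while Ccl7 ranged by 2457-fold, Il33 by 562-fold and Cxcl5 by 466-fold among them. The lowest values of Ccl7 (null 2) and Il33 (null 1) rest on 2 counts each, so their ranges are rough.

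The main question of the design was which of these genes differed between null and wt libraries. Of the 36, 31 passed the filter on low counts and 5 did not (Cxcl15, Cxcl9, Il1b, Il6 and Tnf). The edgeR quasi-likelihood test called 0 members in either direction at an adjusted p under 0.05, as it called 0% of all 13240 genes tested, the lowest adjusted p among them being 0.0845. At an unadjusted p under 0.05, 0 members were higher in null, beside 12.4% of all genes, and 5 were lower, beside 6.07% of all genes (Cxcl14, Cxcl11, Il34, Mif and Cxcl10). The null counts of Cxcl14 and Cxcl11 alone would not have passed the filter, so these could only be called lower. In these bulk libraries, fewer cells that express a gene and less RNA per cell cannot be told apart. DESeq2 called 0 members higher (8.48% of all genes) and 3 lower (3.71% of all genes) at an adjusted p under 0.05, namely Cxcl14 (0.0221), Il34 (0.0169) and Cxcl10 (0.0493). Cxcl5, Ccl7 and Il33 had no adjusted p in DESeq2 and could not be called. The shares are over the 13128 genes that had one.

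Between libraries, 6 of the 31 members lay above both wt libraries in every null library on FPKM, beside 35.9% of all genes tested, and 4 lay below, beside 7.22%. After TMM normalization, which sets aside shifts shared by most genes, these counts were 4 higher (22.5% of all genes) and 7 lower (17.3% of all genes). Among those higher on FPKM, the wt counts of Ccl17, Ccl25, Il15 and Tslp alone would not have passed the filter. These could thus only lie above, and Cxcl11 and Cxcl14, by their null counts, only below. The median log2 fold change was 0.51 over the 31 members and 0.29 over all genes tested, with 18 members above 0 and 13 below. This median was -0.32 without null 1, -0.35 without null 3 and 0.14 without wt 2. Without wt 1 or wt 2, 1 library is left in the wt group, so only fold changes are given from those fits. Members higher at an unadjusted p under 0.05 in edgeR numbered 3 without null 2 (12.8% of all genes) and 1 without null 3 (11.3%). The count of members above both wt libraries on FPKM was 11 without null 2, beside 45% of all genes. Members below numbered 7 without wt 2, 9 without null 1 and 8 without null 3, beside 12.3%, 12.8% and 11.4% of all genes. A permutation test over the 10 splits of 5 libraries cannot give a p under 0.1.

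**Figure D2:**
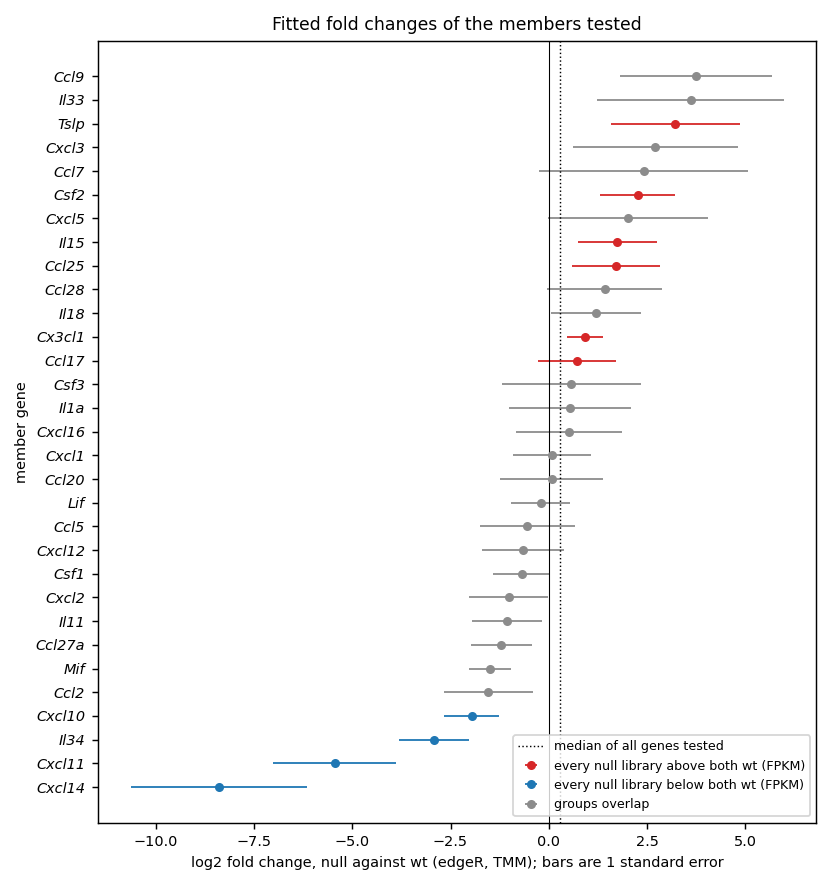
Fitted log2 fold change, null against wt (horizontal axis), of the 31 members tested, with bars of 1 standard error; red and blue points mark genes whose null libraries all lay above or below both wt libraries on FPKM, and the dotted line is the median of all genes tested. Cxcl14 at -8.40 and Cxcl11 at -5.45 lay farthest below 0, Ccl9 at 3.74 lay farthest above it, and Ccl20, Cxcl1 and Lif lay nearest to it.

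The CXCR2 ligands (Cxcl1, Cxcl2, Cxcl3, Cxcl5 and Cxcl15) attract neutrophils and other myeloid cells. Cxcl1, the mouse counterpart of the GRO chemokines, was at 142, 64.8, 56.1, 40.8 and 394 FPKM, highest in null 3 and with the other null libraries below both wt libraries. The fitted log2 difference was 0.08 (SE 0.99), near 0 beside its error, and it ran from -1.66 without null 3 and -0.38 without wt 2 to 0.42, 0.47 and 0.57 without null 1, null 2 and wt 1. Cxcl5, a chemokine of epithelial cells, was at 11.6, 11.8, 191, 0.41 and 6.26 FPKM. The wt libraries nearly coincided, null 1 was 16.3-fold above their mean and null 2 far below it, which made a range of 466-fold among null lines. Cxcl5 had a log2 fold change of 2.01 (SE 2.03), and of -2.50 without null 1. Cxcl2, which shares its receptor with Cxcl1, was at 9.57, 1.99, 7.86, 2.23 and 1.65 FPKM, and Cxcl3 was at 0.45, 0.17, 7.06, 0 and 1.27 FPKM. In null 2, where Cxcl3 had 0 counts, it was at least 3.05-fold lower than the wt mean, with the floor of 3 counts set per library. Cxcl15 stayed at or under 0.33 FPKM. None of the 4 tested ligands separated the groups, and null 2 was the lowest null library for Cxcl1, Cxcl3 and Cxcl5.

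The stretches before the starts of Cxcl1, Cxcl2 and Cxcl3 are shown because these neighbouring genes share a motif there, although their highest levels lay in 3 different libraries (null 3, wt 1 and null 1). The windows came from RefSeq on GRCm38.p6, of which 26 of the 36 members had one. Capitals mark matches on either strand to the NF-kB letters, taken as GGG, any 3 bases and TTCC, in the 120 bases before each start, all on the plus strand of the chromosome: Cxcl1 at chr5:90891125-90891244, Cxcl2 at chr5:90903779-90903898 and Cxcl3 at chr5:90785981-90786100.
Cxcl1: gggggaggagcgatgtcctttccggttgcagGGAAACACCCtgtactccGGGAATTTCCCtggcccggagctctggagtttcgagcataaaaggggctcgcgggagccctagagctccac
Cxcl2: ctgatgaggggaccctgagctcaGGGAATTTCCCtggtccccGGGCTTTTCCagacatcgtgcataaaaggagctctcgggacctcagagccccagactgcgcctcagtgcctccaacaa
Cxcl3: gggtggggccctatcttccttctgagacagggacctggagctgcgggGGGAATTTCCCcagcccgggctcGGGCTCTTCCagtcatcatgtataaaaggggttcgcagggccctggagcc
In each of them, a match on the forward strand and one on the reverse strand overlapped, shifted by 1 base. This pair lay at -71 to -61 from the start in Cxcl1, at -97 to -87 in Cxcl2 and at -73 to -63 in Cxcl3, and every window held a second, separate match. In the 250 bases before the start, 8 of 26 members (30.8%) held the NF-kB letters, beside 5.31% of 27025 genes. These were Cxcl1, Cxcl2, Cxcl3, Cxcl10, Ccl9, Ccl20, Csf1 and Il6. AP-1 letters (TGANTCA, which read the same on both strands) were in 7 members (26.9%), beside 7.82% of genes, and the TCF/LEF letters CTTTGAT were in 1 member, Cxcl12 (3.85%), beside 3.72% of genes. A match describes letters in a window and does not show a bound site.

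The CXCR3 ligands Cxcl9, Cxcl10 and Cxcl11 are induced by interferon and attract T cells and NK cells, and Cxcl10 was the one that reached 1 FPKM. Cxcl10 was at 13.4, 10.0, 1.81, 7.66 and 4.26 FPKM. Every null library lay below both wt libraries, null 2 by the least. A log2 fold change of -1.96 (SE 0.70) had an adjusted p of 0.229 with edgeR and 0.0493 with DESeq2. Cxcl11, which RefSeq classes as a transcribed pseudogene in this assembly, was at 0.27 and 0.69 FPKM in wt and at 0, 0 and 0.04 FPKM in null. With 0 counts in null 1 and null 2, it was at least 7.65-fold and 7.51-fold lower there than the wt mean, and its adjusted p was 0.192 with edgeR. Cxcl11 held 13 and 34 counts in wt and passed the filter through these libraries only. Cxcl9 was not listed in either wt library and was at or under 0.07 FPKM in null.

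The window of Cxcl10 is shown because it held matches to 3 of the 4 searched motifs, the most among the 26 members with a window, and because Cxcl10 was lower in every null library. The 230 bases lie at chr5:92348890-92349119 on the minus strand (GRCm38.p6), and the capitals mark, in this order, an interferon response match (GAAA, any 2 bases and GAAA, searched on both strands), a pair of NF-kB matches and an AP-1 match.
Cxcl10: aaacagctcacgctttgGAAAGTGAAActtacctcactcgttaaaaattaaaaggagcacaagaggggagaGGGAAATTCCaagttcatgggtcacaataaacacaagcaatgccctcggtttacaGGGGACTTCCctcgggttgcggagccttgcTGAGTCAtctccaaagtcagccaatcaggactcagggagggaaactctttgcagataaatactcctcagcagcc
The interferon response letters were in 2 members with a window (7.69%), Cxcl10 and Cxcl14, beside 3.46% of genes.

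Among the CC chemokines that attract monocytes and T cells, null 3 was the highest of the 5 libraries on FPKM for Ccl2, Ccl5, Ccl7 and Ccl9, and after TMM normalization for Ccl5, Ccl7 and Ccl9 but not for Ccl2. Ccl2, the main ligand of CCR2 on monocytes, was at 50.3, 45.9, 4.38, 6.02 and 66.4 FPKM, so that null 1 and null 2 lay well below and null 3 just above the wt libraries. After TMM normalization null 3 lay below them as well, at 42.9 CPM against 47.2 and 49.4 CPM. Ccl7, which shares CCR2, was at 9.79, 6.22, 0.15, 0.08 and 197 FPKM. Null 3 was 24.6-fold above the wt mean, while null 1 and null 2 held 4 and 2 counts in all. Its log2 fold change was 2.42 (SE 2.66), and -6.65 without null 3. Ccl5, which attracts T cells and macrophages, was at 11.7, 24.0, 4.88, 2.95 and 49.9 FPKM. Ccl9, a ligand of CCR1, was at 0.13, 0.36, 0.67, 0.18 and 15.2 FPKM, with null 3 at 62.2-fold the wt mean and the other 4 libraries under 1 FPKM. Fitted log2 fold changes were -1.53 (SE 1.13) for Ccl2, -0.55 (SE 1.21) for Ccl5 and 3.74 (SE 1.94) for Ccl9, and the groups overlapped for all 4 genes on FPKM. Without null 3 these values were -3.82, -2.82 and 0.14, and that of Ccl5 was also 0.14 without wt 2, -1.09 without wt 1, -0.16 without null 1 and -0.12 without null 2. The fibroblast marker sum was also highest in null 3 and lowest in null 1, and its part in these values was not tested.

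The CC chemokines of epithelia and thymus were scarce. Ccl17, a ligand of CCR4 on helper and regulatory T cells, was at 0.44, 0.63, 0.97, 1.92 and 1.19 FPKM, from 7 to 29 counts, and all null libraries lay above wt. Ccl25, which guides T cells to thymus and gut, was at 0.97, 0.27, 1.09, 1.69 and 6.26 FPKM, with null 1 barely above wt 1 and the groups overlapping after TMM normalization. In wt 1 and wt 2, Ccl17 held 7 and 10 counts and Ccl25 held 32 and 9. These wt counts alone would not have passed the filter, so a full separation of either gene could only be upward. Their log2 fold changes were 0.72 (SE 0.99) and 1.71 (SE 1.13). That of Ccl17 was 0.34 without wt 1 or null 2, and that of Ccl25 was 2.70 without wt 1, 1.05 without wt 2 and 0.59 without null 3. Ccl27a, a skin chemokine with near-identical gene copies among which reads may be split, was at 10.96, 5.93, 8.32, 4.50 and 3.01 FPKM. Its groups overlapped on FPKM, while after TMM normalization every null library lay below both wt libraries. Ccl20 and Ccl28, both of mucosal epithelia, did not exceed 0.82 and 0.35 FPKM.

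Cxcl14, an epithelial chemokine of monocytes, dendritic cells and NK cells, showed the widest difference between the groups. It was at 338 and 286 FPKM in wt 1 and wt 2 and at 0.05, 4.23 and 0 FPKM in null 1, null 2 and null 3. These levels rested on 19137 and 16385 counts in wt and on 3, 230 and 0 counts in null. The groups did not come near each other, and the null line with the most Cxcl14 kept 0.0136 of the wt mean. Its null counts alone would not have passed the filter, so Cxcl14 could only be called lower. With 0 counts, null 3 was at least 5698-fold lower than the wt mean. The log2 fold change of -8.40 (SE 2.24) had an adjusted p of 0.191 with edgeR and 0.0221 with DESeq2. Over the edgeR, DESeq2 and limma alternatives that kept both wt libraries, the adjusted p lay between 0.0221 and 0.222. The log2 fold change lay between -13.97 (without null 2) and -7.47 over all alternatives.

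Cx3cl1, the only CX3C chemokine, is a membrane-bound adhesion molecule that proteases shed to attract cells with CX3CR1. Its levels were 18.3, 22.0, 64.1, 63.4 and 44.6 FPKM. On FPKM, the null lines lay between 2.21-fold and 3.18-fold above the wt mean and ranged by 1.44-fold among themselves, the narrowest range of the members above 10 FPKM that separated the groups. After TMM normalization the groups lay closer, at 187.5, 164.7 and 116.2 CPM in null 1, null 2 and null 3 against 69.25 and 95.73 CPM in wt 1 and wt 2. A log2 fold change of 0.92 (SE 0.45) had an adjusted p of 0.311 with edgeR. Adam10, the protease that sheds Cx3cl1 and Cxcl16 at rest, was at 3.21, 3.18, 12.4, 19.2 and 14.3 FPKM, with a log2 fold change of 1.67 (SE 0.45) and adjusted p of 0.191 with edgeR and 0.0096 with DESeq2.

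Cxcl16, the other membrane-bound chemokine, was at 18.6, 24.2, 112, 2.49 and 16.1 FPKM, high in null 1 and low in null 2. Cxcl12, which holds cells with CXCR4 in place, was at 66.3, 115, 6.33, 128 and 138 FPKM. Null 1 stood alone below the other 4 libraries, by 21.9-fold against null 3. Log2 fold changes were 0.51 (SE 1.35) for Cxcl16, and -0.65 (SE 1.05) for Cxcl12. The value of Cxcl16 was -1.91 without null 1, 0.15 without wt 1, 0.97 without null 2 and 0.84 without null 3. That of Cxcl12 was -0.14 without null 1, -0.23 without wt 2, -1.06 without null 3 and -1.08 without wt 1 or null 2.

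The windows of Cxcl14 and Cx3cl1 are shown as those of the chemokines that separated the groups most widely in either direction at over 10 FPKM. For Cxcl14, 200 bases at chr13:56296552-56296751 on the minus strand (GRCm38.p6) held 1 interferon response match, in capitals. For Cx3cl1, the 120 bases at chr8:94772060-94772179 on the plus strand held none of the 4 motifs.
Cxcl14: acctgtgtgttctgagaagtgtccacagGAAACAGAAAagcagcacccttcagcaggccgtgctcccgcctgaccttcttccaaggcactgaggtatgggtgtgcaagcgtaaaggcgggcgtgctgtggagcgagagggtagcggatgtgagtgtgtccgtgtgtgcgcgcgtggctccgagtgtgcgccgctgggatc
Cx3cl1: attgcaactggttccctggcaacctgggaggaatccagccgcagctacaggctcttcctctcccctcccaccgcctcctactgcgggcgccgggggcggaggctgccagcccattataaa

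IL-1 family cytokines, alarm signals released when cells are damaged, were low in 4 of the 5 libraries. Il33, a nuclear alarmin of stromal and epithelial cells, was at 0.47, 0.15, 0.03, 0.27 and 16.9 FPKM, so that null 3 stood alone at 54.4-fold the wt mean. The log2 fold change of 3.61 (SE 2.37) became -1.67 without null 3. Il18, an inducer of interferon-γ, was at 0.50, 0.19, 0.39, 1.00 and 2.20 FPKM, and Il1a was at 0.33, 0.30, 1.53, 0.02 and 0.38 FPKM. Both had overlapping groups, with null 3 highest for Il18 and null 1 for Il1a, and the log2 fold change of Il1a was -1.34 without null 1. Il1b was listed only in null 1, with 2 counts.

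Of the IL-6 family, whose members signal through the shared receptor chain Il6st, the 36 genes include Lif, Il11 and Il6. Among these, Lif was the most abundant in every library. Lif, which keeps stem cells undifferentiated, was at 17.7, 7.91, 18.2, 25.7 and 4.45 FPKM and Il11 at 1.26, 0.56, 0.55, 1.05 and 0.34 FPKM. Both were lowest in null 3, and their groups overlapped. Il6, the acute-phase cytokine, held 2, 2, 0, 0 and 119 counts and thus reached 3.76 FPKM in null 3 while at or under 0.06 FPKM elsewhere. It did not pass the filter and has no fitted value.

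Colony stimulating factors and Il34 control the number of myeloid cells. Csf1 and Il34 share the receptor Csf1r. Csf1 was at 395, 179, 92.5, 477 and 154 FPKM, with both the highest and the lowest library among the null lines. Its log2 fold change was -0.69 (SE 0.72), and it was -1.76 without null 2, -1.14 without wt 2, -0.30 without wt 1, -0.34 without null 1 and -0.44 without null 3. Il34 was at 86.4, 47.4, 5.97, 30.3 and 3.96 FPKM. Every null library lay below both wt libraries, null 2 the closest to them. The log2 fold change of Il34 was -2.92 (SE 0.88), with an adjusted p of 0.196 with edgeR and 0.0169 with DESeq2, and the fold change was -4.35 without null 2.

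Csf2, known as GM-CSF, was at 4.56, 1.02, 23.2, 27.7 and 6.23 FPKM. All null libraries were above wt on FPKM, null 3 only slightly above wt 1, and the groups overlapped after TMM normalization. Its log2 fold change was 2.26 (SE 0.95), with an adjusted p of 0.27 in edgeR, and it was 3.46 without wt 1 and 1.49 without wt 2. Csf3, the granulocyte factor, was at 3.40, 1.55, 14.1, 0.05 and 1.05 FPKM, highest in null 1 and nearly absent from null 2, where it had 2 counts. Csf3 had a log2 fold change of 0.58 (SE 1.77), and of -2.81 without null 1, 0.07 without wt 2, 1.02 without wt 1, 1.06 without null 2 and 0.99 without null 3.

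Il15, which sustains NK cells and memory T cells, was low at 0.31, 0.20, 1.02, 0.64 and 2.18 FPKM, with all null libraries above wt and between 8 and 82 counts a library. Tslp, an epithelial cytokine that acts on dendritic cells, was at 0.12, 0.17, 0.35, 0.33 and 5.69 FPKM. Null 1 and null 2 lay slightly and null 3 far above the wt libraries. In wt 1 and wt 2, Il15 held 12 and 8 counts and Tslp held 4 and 6. These wt counts alone would not have passed the filter, so a full separation of either gene could only be upward. Their log2 fold changes were 1.74 (SE 1.01) and 3.22 (SE 1.65), with adjusted p of 0.39 and 0.335 in edgeR, and without null 3 they were 1.12 and 0.63. Mif was at 975, 1882, 1042, 540.4 and 702 FPKM. It overlapped between the groups on FPKM and did not after TMM normalization, with a log2 fold change of -1.50 (SE 0.54) and an adjusted p of 0.229 with edgeR and 0.0821 with DESeq2, the fold change being -0.91 without wt 2. Tnf had 10 counts in null 1, 1 in null 3 and 0 in the other libraries.

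The range among the null lines was also read over genes chosen by the wt libraries alone, so that a high level in 1 null line could not bring a gene in. For the 18 members with a mean of at least 1 FPKM in wt, the median range of the 3 null libraries was 3.09 log2 units of FPKM, against 0.87 between the wt libraries. Over 9231 genes chosen in the same way, these medians were 1.31 and 0.40 log2 units. A range of at least 3 log2 units among null lines was found for 9 of the 18 members and for 8.87% of all such genes. These values are a description with no test, since the wt libraries carried a single line name and the null libraries 3. A range over 3 libraries also tends to exceed a range over 2 at the same spread.

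Each null library was also set against the mean of both wt libraries, with 1 library a line and hence no test, and the 3 comparisons share the wt libraries. Counted at 2-fold or more on CPM, null 1 had 11 of 31 members higher (37.7% of all genes tested) and 10 lower (14.1%). Null 2 had 7 higher (40.7% of all genes) and 15 lower (12.1%), and null 3 had 14 higher (42.8%) and 10 lower (10.4%). After TMM normalization, null 1 had 9 members higher beside 27.7% of all genes and 12 lower beside 21.9%. On that scale null 2 had 2 higher beside 26.8% and 19 lower beside 23.1%. For null 3 these counts were 10 higher beside 28.2% and 13 lower beside 20.9%. The median log2 ratio on CPM was 0.44, -0.92 and 0.58 over the members in null 1, null 2 and null 3, and 0.56, 0.62 and 0.73 over all genes tested. After TMM normalization the medians were 0.03, -1.53 and -0.08 over the members and 0.09, -0.01 and 0.10 over all genes tested, so null 2 had the lowest member median on both scales while that of null 3 was below 0 only after TMM.

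Side by side, null 1 had the highest Cxcl5, Cxcl3, Cxcl16, Csf3 and Il1a, null 3 the highest Ccl7, Ccl9, Il33, Il6 and Tslp, and null 2 the lowest Cxcl5, Cxcl16 and Csf3. Null 1 also had the highest sum of epithelial markers and null 3 the highest sum of fibroblast markers. Whether these markers had a part in the differences was not tested.

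**Figure D3:**
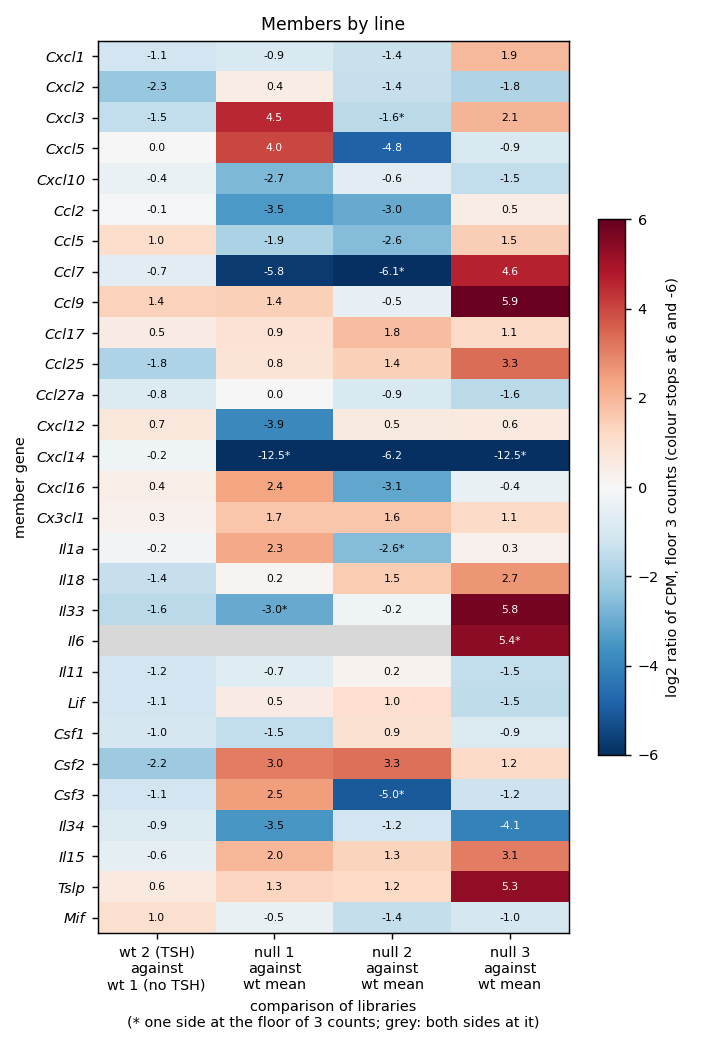
Log2 ratio of CPM for the 29 members that reached 1 FPKM, in wt 2 against wt 1 and in each null library against the mean of both wt libraries, with a floor of 3 counts per library (asterisk, 1 side at the floor; grey, both sides at it). Ccl7, Cxcl5, Csf3 and Il33 changed colour between null lines. At 2-fold or more in each null column, Cxcl14 and Il34 were blue and Cx3cl1, Csf2, Il15 and Tslp red.

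The wt libraries differ in their labels only by TSH, the pituitary hormone that drives thyroid cells, with 1 library each and no test. At 2-fold or more on CPM, 3 of the 31 members were higher with TSH (5.34% of all genes tested) and 13 were lower (12.6%). After TMM normalization 4 were higher and 8 lower, beside 7.70% and 8.58% of all genes. Cxcl2 was at 9.57 FPKM without and 1.99 FPKM with TSH, Csf2 at 4.56 and 1.02 FPKM, and Ccl25 at 0.97 and 0.27 FPKM. Csf1, Cxcl1, Lif and Csf3 also had between 0.448 and 0.456 of their level without TSH, and on the TMM scale they did not reach 2-fold. Ccl5 was higher with TSH, at 24.0 against 11.7 FPKM, and so was Mif, at 1882 against 975 FPKM. The TSH receptor Tshr itself was at or under 0.11 FPKM in all 5 libraries.

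Several members lie next to each other in the genome, as the order of genes in RefSeq (GRCm38.p6) shows. Cxcl5, Ppbp, Pf4, Cxcl3, Cxcl15, Cxcl1 and Cxcl2 follow each other on chromosome 5 with few other gene models between them. Ppbp, a CXCR2 ligand of platelets that is not among the 36, was at 0.45, 0.95, 382, 0.03 and 49.8 FPKM, with the same highest and lowest libraries as its neighbour Cxcl5. At the other end of the cluster, Cxcl1 was highest in null 3 and Cxcl2 in wt 1. On chromosome 11, Ccl2 and Ccl7 were abundant in null 3 (66.4 and 197 FPKM) while their neighbours Ccl11, Ccl12, Ccl8 and Ccl1 stayed at or under 0.28 FPKM. Ccl5 and Ccl9 reached 49.9 and 15.2 FPKM in null 3 beside Ccl6, Ccl3 and Ccl4, of which none exceeded 1.00 FPKM. Cx3cl1 and Ccl17 are neighbours on chromosome 8 with Ccl22, which was at 0.11 FPKM in null 3 and not listed in the other libraries.

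**Figure D4:**
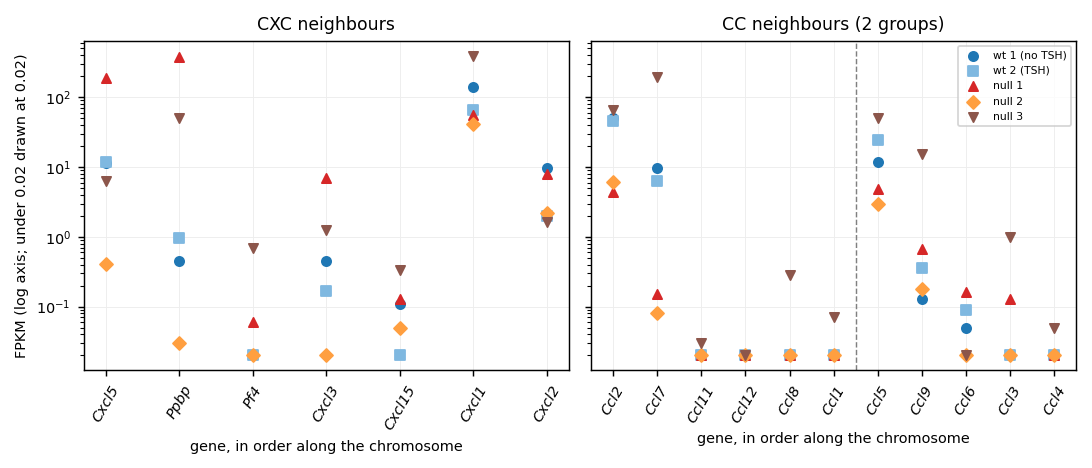
FPKM (log axis, values under 0.02 drawn at 0.02) of chemokine genes in their order along chromosome 5 (left) and, in 2 groups parted by the dashed line, along chromosome 11 (right); each point is 1 library. Null 1 led at Cxcl5, Ppbp and Cxcl3, and null 3 led at Cxcl1, Ccl2, Ccl7, Ccl5 and Ccl9. On chromosome 11, the neighbours that are not members stayed at or under 1.00 FPKM.

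Other genes of these pathways were read from lists of the same kind. Of 17 further chemokines, 11 were listed and 1 was tested (Ppbp, log2 fold change 7.16, SE 2.95, adjusted p 0.265 with edgeR and 0.0444 with DESeq2). The groups overlapped for Ppbp, and its log2 fold change lay between 2.87 and 7.82 over the alternatives. Of 36 further cytokines, 11 were tested, with 1 higher (Kitl, whose groups overlapped) and 2 lower at an unadjusted p under 0.05, beside 12.4% and 6.07% of all genes. Kitl had an adjusted p of 0.253 with edgeR and 0.0351 with DESeq2. The lower ones were Il17b, at 1.56 and 4.15 FPKM in wt and at or under 0.05 FPKM in null, and the dendritic cell growth factor Flt3l, at 11.6, 4.75, 2.61, 2.15 and 2.72 FPKM. Their adjusted p were 0.18 and 0.194 with edgeR and 0.000532 and 0.00743 with DESeq2. Il17b held 1, 0 and 0 counts in null and passed the filter through the wt libraries only. Il24, which reached the highest level of this list in any library but led it in null 1 only, was at 0.71, 1.61, 95.9, 0 and 5.08 FPKM, and like Cxcl5 it was highest in null 1 and lowest in null 2.

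Most receptors for the chemokines were at or near 0 in these cells. Of 22, 18 were listed, 3 reached 1 FPKM in any library and 5 were tested, with 1 higher (Ccr1, at or under 0.28 FPKM) and 0 lower at an unadjusted p under 0.05, beside 12.4% and 6.07% of all genes. Ccr1 held 1 and 0 counts in wt and passed the filter through null libraries only, so it could only be called higher. Cxcr2, the receptor of the Cxcl1 to Cxcl5 group, was at 4.36, 4.88, 1.22, 1.54 and 6.06 FPKM, with groups that overlapped on FPKM and did not after TMM normalization, where every null library was lower. Ackr3, a scavenger of Cxcl12, was at 5.13, 6.90, 13.2, 3.01 and 13.1 FPKM, whereas the signalling receptor Cxcr4 was at 0.52 FPKM in null 2 and not listed elsewhere. Ccr2 did not exceed 0.02 FPKM, Cxcr3 did not exceed 0.10 FPKM and Cx3cr1 did not exceed 0.12 FPKM.

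Cytokine receptors were present more often, 18 of 22 being tested, with 4 higher (Il18r1, Il18rap, Osmr and Il2rb) and 1 lower at an unadjusted p under 0.05, beside 12.4% and 6.07% of all genes, and none past the adjusted threshold in edgeR. Il18r1, Osmr and Il2rb held at most 4 counts in either wt library and passed the filter through null libraries only. Higher was thus the only direction in which these receptors could be called. Il11ra1, the receptor of Il11, was at 34.2, 35.7, 7.09, 12.0 and 24.1 FPKM, below wt in every null library, with a log2 fold change of -1.90 (SE 0.57) and an adjusted p of 0.195 with edgeR and 0.0257 with DESeq2. Osmr and Lifr, partners of Il6st, were at 27.0 and 8.20 FPKM in null 3 and at or under 0.61 and 0.08 FPKM in the other libraries. Il1rl1, the receptor of Il33, was at 3.96, 6.67, 0.06, 1.74 and 20.5 FPKM and thus highest in the line with the most Il33. Il18r1 was at 0.02, 0.05, 10.7, 0 and 4.10 FPKM, with an adjusted p of 0.264 with edgeR and 0.013 with DESeq2. Crlf2, the Tslp receptor, was at 15.2, 11.1, 26.7, 5.74 and 6.27 FPKM, and Cd74 at 5.57, 1.40, 8.62, 0.64 and 17.8 FPKM. Csf1r did not exceed 0.37 FPKM and Csf3r did not exceed 0.05 FPKM.

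Among 9 decoys and inhibitors, 8 were tested, with 1 higher and 1 lower at an unadjusted p under 0.05 (12.4% and 6.07% of all genes). Il1rn, the antagonist of the IL-1 receptor, was at 0, 0.01, 15.6, 0.72 and 2.06 FPKM and thus above Il1a in each null library, with an adjusted p of 0.186 with edgeR and 0.000138 with DESeq2. Il1rn held 0 and 1 counts in wt and passed the filter through null libraries only, so it could only be called higher. Nfkbia, the inhibitor of NF-kB that is itself an NF-kB target, was at 88.1, 123, 42.2, 38.2 and 56.4 FPKM, below wt in every null library. Nfkbia had a log2 fold change of -1.82 (SE 0.43), with an adjusted p of 0.186 with edgeR and 0.00386 with DESeq2. All 19 genes of the NF-kB pathway list, Nfkbia among them, were tested, with 1 higher and 1 lower at an unadjusted p under 0.05, again beside 12.4% and 6.07% of all genes. The higher one was the kinase Chuk, at 2.72, 1.11, 7.33, 8.27 and 12.9 FPKM (log2 fold change 1.75, SE 0.59, adjusted p 0.218 with edgeR and 0.0483 with DESeq2). Of 8 processing and shedding proteases, 5 were tested, and Adam10 and Pycard were higher at an unadjusted p under 0.05, beside 12.4% of all genes. Pycard was at 0.02, 0.03, 6.23, 0.03 and 0.32 FPKM, with groups that overlapped on FPKM. Its adjusted p was 0.266 with edgeR and 0.0233 with DESeq2. With 1 and 2 counts in wt, it passed the filter through null libraries only and could only be called higher.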

How the data were processed

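RNA from 2 BVE-Ctnnb1wt and 3 BVE-Ctnnb1null libraries (TruSeq) was analysed from the deposited tables. For each RefSeq transcript the authors deposited an estimated count (fractions occur) and an FPKM scaled to transcript length and library total, listed from 0.01 upward. The aligner, counting program and genome build are not given in the sources used here. Both values were summed per NCBI gene number, an unlisted gene was set to 0, and counts were rounded. Symbols came from RefSeq (GRCm38.p6) for 17866 of 17923 genes. The main test was edgeR 4.0.16 in R 4.3.3 (TMM, filterByExpr, glmQLFit and glmQLFTest, null against wt), fitted on 13240 genes with Benjamini-Hochberg adjustment over all of them. A standard error is the log2 fold change divided by the square root of F. Alternatives were DESeq2 1.42.0, other count filters, library totals without TMM, limma 3.58.1 with trend on log2(FPKM + 0.1), with 0.01 or 1 added and without its filter (FPKM of at least 0.5 in 2 libraries), each library left out, and the replicate number as a block. Ratios of single libraries used CPM with a floor of 3 counts. Fits were tested on simulated data in which 200 of 13240 genes differed by 2 log2 units, at different dispersions (spread between libraries). At a dispersion of 0.05, edgeR, DESeq2 and limma found 96.5%, 95% and 94.5% of these genes, with 10, 13 and 16 false calls. At 0.349, the median dispersion of the fit, edgeR and limma found 0% with 0 false calls, and DESeq2 found 18.5% with 27 false calls. The 0 calls in edgeR therefore cannot show that no gene differed, and DESeq2 calls may include false ones. The members, gene lists, naming rule and tests were chosen with earlier results of these data known. Values in every library are given for members that reached 1 FPKM. Genes of other lists are named if they separate the groups at an unadjusted p under 0.05, lead their list, mark a cell type, adjoin a member in the genome or are receptors of one, and any other gene behind a count of 5 or fewer (among them Kitl and Pycard) was chosen after its values were seen. The animal and cytotoxicity experiments were not analysed here.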

Additional observations from a re-analysis of the deposited data

How the results depend on the processing

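Of 372 values of 28 members under the alternatives, 324 kept their direction and side of the threshold, and 17 members never changed direction. Genes past the adjusted threshold (0 in either direction) were 1113 higher and 487 lower with DESeq2, 4 lower with no count filter, 1 lower with at least 10 counts in every library, and 1 higher with 5, 3 and 7 lower in limma with 0.1, 0.01 and 1 added. Members past it (0) were 3 lower with DESeq2 (Cxcl10, Cxcl14 and Il34) and 1 lower in limma with 1 added (Cxcl14). Members higher at an unadjusted p under 0.05 (0) were 3 with DESeq2 (16.5% of all genes in that fit), 1 with no filter (9.69%), 1 with at least 10 counts (13.4%), 2 with library totals (22.3%), 2 in limma with 0.1, 0.01 or 1 added or without its filter (19.1%, 19.6%, 16.6% and 13.4%) and 1 with the block (7.15%). Lower members (5) were 3 with at least 10 counts (6.61%), 3 with library totals (2.08%), 2 in limma with 0.1, 0.01 or 1 added (2.79%, 2.65% and 2.83%) and 3 in limma without its filter (2.31%). The member median (0.51) was 1.01 with library totals (0.87 over all genes), -0.64 with at least 10 counts, when fewer members were tested, -0.46, -0.50 and -0.14 in limma with 0.1, 0.01 and 1 added, and 0.12 in limma without its filter. After TMM normalization 7 members lay below both wt libraries in every null library (17.3% of all genes), and 4 on FPKM (7.22%). Chosen after seeing the data, the TMM scale gave 8 members lower with TSH (8.58% of all genes), against 13 on CPM (12.6%), and 2 higher in null 2 (26.8%), against 7 on CPM (40.7%).

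The median log2 fold change of all genes tested was 0.29 with TMM, 0.87 with library totals, 0.61 in limma with 0.1 added and 0.21 with DESeq2. Directions turned for Cxcl1 with DESeq2 (-0.00867), and with library totals for Ccl5 (0.10), Cxcl12 (0.00475) and Lif (0.33). In limma with 0.1, 0.01 and 1 added, the log2 fold changes were -0.47, -0.56 and -0.018 for Cxcl5, -1.93, -2.47 and -0.50 for Ccl7, -0.35, -0.37 and -0.24 for Cxcl16, 0.11, 0.11 and 0.13 for Lif, and -0.84, -1.26 and -0.0714 for Csf3, and without the filter they were as with 0.1 added. Leaving out each null library in turn gave 0 to 3 members higher (11.3% to 16.1% of all genes) and 5 to 7 lower (6.95% to 11.5%) at an unadjusted p under 0.05 in edgeR. With each of the 5 libraries left out in turn, medians were -0.35 to 0.57. In the same way, 7 to 11 members lay above (41.2% to 48.9%) and 5 to 9 below (9.94% to 12.8%) the wt libraries. Log2 fold changes then ranged from -1.66 to 0.57 for Cxcl1, -2.18 to 0.26 for Cxcl2, -2.50 to 2.49 for Cxcl5, -2.82 to 0.14 for Ccl5, -6.65 to 2.94 for Ccl7, -1.91 to 0.97 for Cxcl16, -1.34 to 1.01 for Il1a, -1.67 to 4.46 for Il33, -0.74 to 0.25 for Lif and -2.81 to 1.06 for Csf3.

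The replicate numbers are not a pairing in the labels, and the deviations of same-numbered libraries correlated at -0.09 in both pairs. With the replicate block, which leaves null 3 without a partner, the member median was -0.84 and the log2 fold changes turned for Cxcl1 (-1.56), Cxcl5 (-0.84), Ccl7 (-6.65), Cxcl16 (-0.90), Il1a (-0.94), Il33 (-1.98), Lif (0.31) and Csf3 (-1.58). The causes of these changes were not tested. With 2 and 3 libraries of 4 line names, low members such as Ccl17, Il15 and Tslp rest on few counts, and differences between groups cannot be told apart from differences between lines.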

Other observations

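A few cytokine genes outside the 36 also differed between lines and were chosen after their values were seen. Kitl, the ligand of the receptor Kit on mast cells and progenitors, was at 0.44 and 0.60 FPKM in wt 1 and wt 2 and at 0.37, 15.9 and 12.3 FPKM in null 1, null 2 and null 3. Clcf1, an IL-6 family cytokine, was at 1.88, 1.05, 11.1, 7.72 and 4.97 FPKM in the same order, above wt in every null library, with an adjusted p of 0.27 in edgeR. Il23a, the IL-23 subunit, was at 0.34, 0.19, 5.69, 0.03 and 4.55 FPKM.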
